A study of Xenopus laevis with 3 samples.

Results

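Livers of female African clawed frogs (Xenopus laevis) injected with artemisinin were set directly against livers of frogs injected with pregnenolone. For each probe set of an Affymetrix array, a group of short probes that report 1 transcript, the log2 expression value on the pregnenolone array was subtracted from that on the artemisinin array. Of 32539 probe sets that are no controls, 16270 were compared, those with a mean over the 3 arrays no lower than the median of such means (5.61). They stood for 7478 genes, each represented by the probe set that had the highest mean.

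Artemisinin at 200 mg/kg or pregnenolone at 50 mg/kg, each in the solvent DMSO, was given to 3 frogs into the body cavity on 2 days in a row, and control frogs, whose number is not spelled out, were given DMSO alone on the same days. Animals were kept at 22 °C, livers were taken 24 h after the last injection, and the RNA of a group was pooled for 1 array. The study searched for genes controlled by xlCAR, the constitutive androstane receptor of this frog. The doses differ, so compound and dose cannot be told apart. With 1 pooled array a side, no spread between frogs was measured and no difference was tested. "Higher" and "lower" describe the artemisinin array relative to the pregnenolone array. In pooled liver RNA, fewer cells of a type and less RNA per cell cannot be told apart.

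Artemisinin is an antimalarial drug whose peroxide bridge is opened by heme or iron, and in mammals it activates the constitutive androstane receptor and the pregnane X receptor. Pregnenolone is made from cholesterol and is the precursor of the steroid hormones. Both receptors are nuclear receptors that, in mammalian liver, raise the transcription of cytochrome P450 (CYP) enzymes and of other genes of drug clearance. X. laevis is allotetraploid, so many genes exist as a copy on a long chromosome (.L) and a copy on a short chromosome (.S).

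The array-wide values were close, in part because the processing of the deposited values makes the distributions of the arrays alike. The median of all probe sets was 5.62 with artemisinin, 5.61 with pregnenolone and 5.62 with DMSO, and 89.2% of the compared probe sets lay within 1.5-fold between the treated arrays. Probe sets of the same gene differed among themselves by an SD of 0.267 (log2) in their difference between the compounds, over 1287 genes with several probe sets. Large differences were reproduced less well. In 36 of these genes the brightest probe set passed 2-fold. The next brightest had the same sign in 31 of the 36 and also passed 2-fold in that direction in 15. The bacterial hybridization controls (bioB, bioC, bioD and cre) were higher by 0.02 to 0.22 with artemisinin. Of 15 hepatocyte markers on the array 14 passed the level filter. Their summed linear level was 136053 with artemisinin, 125756 with pregnenolone and 130417 with DMSO.

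The artemisinin value exceeded the pregnenolone value by 2-fold or more at 334 probe sets (2.05%) and fell short of it by as much at 225 (1.38%). At 4-fold the counts were 85 and 30, and at 8-fold 23 and 7. The excess on the artemisinin side belonged to the large differences. At 1.5-fold 835 probe sets were higher and 919 lower, so the higher share of all calls was 47.6% there, 59.7% at 2-fold and 70.3% at 3-fold. Counted by gene, with 1.5-fold as the least difference that is called higher or lower, 372 (4.97%) were higher and 488 (6.53%) lower, and the median difference of all 7478 genes was 0.00. The same 1.5-fold applies to every gene list that follows, and counts in a list stand against these shares. Lists and members were chosen with earlier results of these data known, so their counts and ranks describe and do not test. Of the probe sets past 2-fold, 163 of the 334 higher and 83 of the 225 lower carried no gene symbol. Some values lay near background: the pregnenolone value was under the level filter for 76 of the 334, and the artemisinin value for 26 of the 225. The size of such differences depends on how background was handled.

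**Figure D1:**
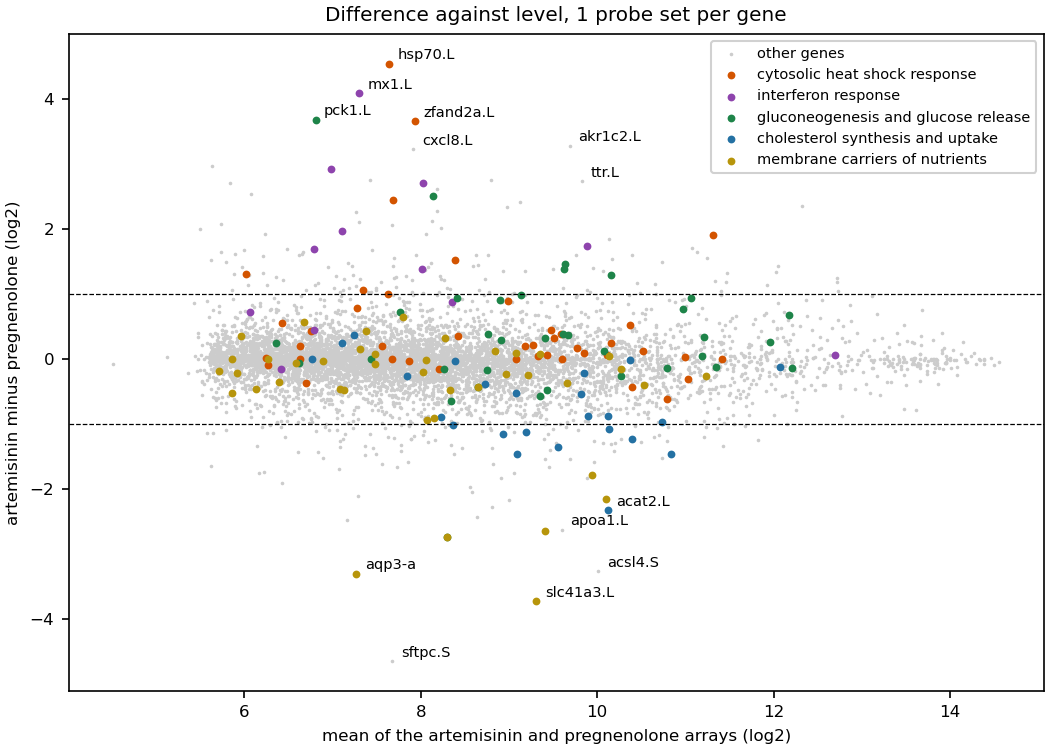
Each point is a gene: the x axis is its mean log2 value on the artemisinin and pregnenolone arrays, the y axis the artemisinin value minus the pregnenolone value (log2), and dashed lines mark 2-fold. Among the highest points are hsp70.L (4.55), mx1.L (4.09) and pck1.L (3.68), and among the lowest are sftpc.S (-4.65), slc41a3.L (-3.73) and acat2.L (-2.33).

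The highest gene was hsp70.L (Entrez gene 398343), a cytosolic chaperone made under protein-damaging stress. Its value was 9.91 with artemisinin, 5.37 with pregnenolone and 5.63 with DMSO, a log2 difference of 4.55 or 23.4-fold between the compounds. The artemisinin array alone was high, and the other arrays lay near the level filter. The antiviral GTPase gene mx1.L (100861583) stood at 9.35 with artemisinin, 5.26 with pregnenolone and 7.40 with DMSO (4.09, 17.0-fold). Here the DMSO array lay between both compounds. The gluconeogenesis gene pck1.L (379844) had 8.65 with artemisinin, 4.97 with pregnenolone and 5.32 with DMSO (3.68, 12.9-fold). It passed the level filter through artemisinin, since the other values lay under it, so the size of the difference is uncertain. The second copy pck1.S, under the filter on all arrays, differed by 0.40. The zinc-finger gene zfand2a.L, known in mammals as a heat- and arsenite-inducible partner of the proteasome, had 9.77, 6.11 and 6.90 on the artemisinin, pregnenolone and DMSO arrays (3.66, 12.7-fold).

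Behind them came akr1c2.L, an aldo-keto reductase, at 11.33 with artemisinin, 8.05 with pregnenolone and 6.37 with DMSO (3.29, 9.75-fold). Both compounds stood above DMSO for this gene, and artemisinin further. The second copy akr1c2.S, under the level filter on all arrays, differed by 0.43. The neutrophil chemokine gene cxcl8.L had 9.53 with artemisinin, 6.30 with pregnenolone and 5.72 with DMSO (3.23). The thyroid hormone carrier ttr.L, made by hepatocytes, had 11.20, 8.46 and 10.32 in the same order (2.74), so that the pregnenolone array was the low one. The same held for darmin.L, a peptidase gene first described in frog endoderm, at 7.12 with artemisinin, 4.14 with pregnenolone and 7.65 with DMSO (2.98, with 0.00 at a dim second probe set), and for larp6-like.1.S at 7.34, 4.81 and 7.43 (2.53). The other genes among the 15 highest were the interferon-related gbp1 (2.92), herc6.S (2.76), gbp7.S (2.71) and parp12.L (2.71), the metalloproteinase inhibitor timp-1.L (2.76) and pir.L (2.61), a target of the antioxidant regulator NRF2 in mammals.

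**Figure D2:**
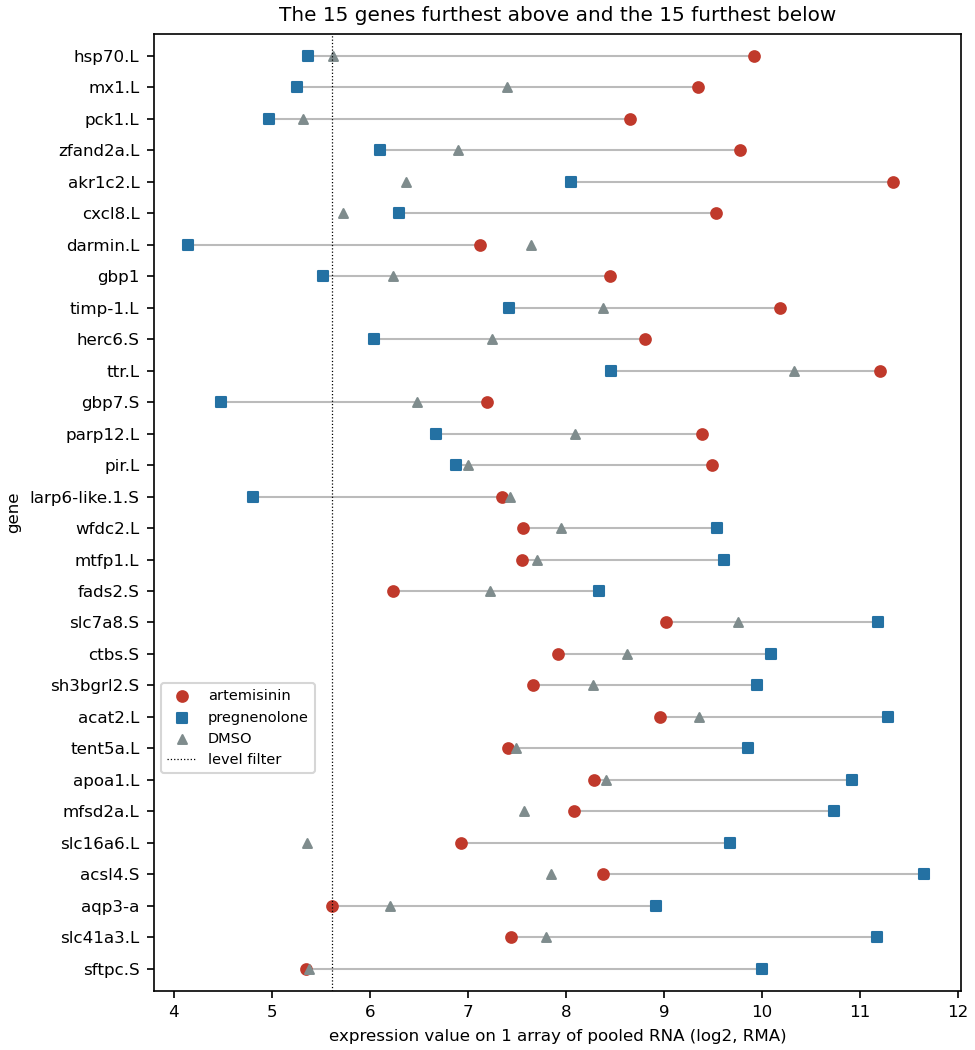
The 15 highest genes by artemisinin minus pregnenolone (top) and the 15 lowest (bottom, ending at the lowest), with the log2 value on each of the 3 arrays. Circles are artemisinin, squares pregnenolone, triangles DMSO, and the dotted line is the level filter at 5.61. For mx1.L the DMSO triangle lies between the other symbols, and for sftpc.S it lies beside the artemisinin circle.

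At the other end stood sftpc.S (779071), which encodes a surfactant protein made in lung. Its value was 5.35 with artemisinin, 10.005 with pregnenolone and 5.38 with DMSO, a difference of -4.65 or 25.2-fold. The pregnenolone array was the only high array. The magnesium carrier-like gene slc41a3.L had 7.44 with artemisinin, 11.18 with pregnenolone and 7.80 with DMSO (-3.73, 13.3-fold lower with artemisinin). The water and glycerol channel aqp3-a had 5.62, 8.92 and 6.20 on the artemisinin, pregnenolone and DMSO arrays (-3.31). For both carriers the artemisinin value lay nearer to DMSO than to pregnenolone.

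The next lowest were acsl4.S, an acyl-CoA synthetase for long-chain fatty acids (8.38 with artemisinin, 11.65 with pregnenolone and 7.85 with DMSO, -3.27), and slc16a6.L, which in zebrafish exports ketone bodies from hepatocytes (6.93, 9.67 and 5.36, -2.74). The lysophospholipid carrier mfsd2a.L had 8.08 with artemisinin, 10.73 with pregnenolone and 7.57 with DMSO (-2.65). At the probe sets used for these genes the DMSO value lay below both compounds. At dimmer probe sets it lay just above artemisinin, with 7.47 under artemisinin, 10.49 under pregnenolone and 7.57 under DMSO for acsl4.S and 6.72, 8.91 and 6.76 in that order for mfsd2a.L. The apolipoprotein of high-density lipoprotein, apoa1.L, had 8.29 with artemisinin, 10.91 with pregnenolone and 8.41 with DMSO (-2.63), and its second copy apoa1.S 13.09, 13.86 and 13.34 (-0.77). The cholesterol gene acat2.L (-2.33), the desaturase fads2.S (-2.10), the amino acid carrier slc7a8.S (-2.16), the chitobiase ctbs.S (-2.18), sh3bgrl2.S (-2.29), tent5a.L (-2.44), the mitochondrial fission gene mtfp1.L (-2.06) and wfdc2.L (-1.98) completed the 15 lowest. Several probe sets gave smaller means for tent5a.L (-1.37 over 2) and mtfp1.L (-0.80 over 3), while acsl4.S kept -3.09 over 3.

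Where sftpc.S was high, other genes that are not typical of liver were high too, on the pregnenolone array. The probe sets of a second surfactant gene, sftpb.L, lay below the level filter on average and had 3.09 and 5.03 with artemisinin, 5.21 and 6.67 with pregnenolone and 3.11 and 4.89 with DMSO. The muscle genes myl2.S, a myosin light chain of heart and slow muscle, and acta1.S, skeletal actin, also below the filter on average, had 2.99 and 4.24 with artemisinin, 8.36 and 8.11 with pregnenolone and 3.05 and 4.40 with DMSO. These lung and muscle genes were looked up after their values were seen. Unlike the other lists, the lists of lung and striated muscle genes were drawn from all probe sets. Only 4 of 9 lung genes and 5 of 35 striated muscle genes lay above the level filter on average. The shares over compared genes therefore do not apply to their counts. No share at 1.5-fold over all genes without the filter is given, so these counts cannot be set against the array. At 2-fold, 63 of the 16269 probe sets below the filter were higher and 45 lower. Below the filter 41.8% of all probe sets had the same value on both treated arrays. On the list of 9 lung genes 2 were lower with artemisinin and 1 higher. The lower ones were sftpc.S, whose value led to the list, and sftpb.L. The median was 0.00. The summed linear level of the list was 931 with artemisinin, 1831 with pregnenolone and 1153 with DMSO. Without sftpc.S it was 890.3 with artemisinin, 803 with pregnenolone and 1112 with DMSO. The brightest genes in that sum were napsa.L (0.77) and abca3.S (-0.15). Of 35 striated muscle genes 6 were lower and 0 higher (median -0.06). The 6 include myl2.S and acta1.S, whose values led to the list. Besides myl2.S and acta1.S the lower ones were tnnc1.L (-1.10), myl4.L (-1.07), tnni1.S (-1.05) and myl4.S (-0.77). The summed level of the muscle list was 1880 with artemisinin, 2486 with pregnenolone and 1861 with DMSO. Without myl2.S and acta1.S it was 1853, 1883 and 1832 in the same order. The brightest genes in that sum were atp2a1.S (0.19) and tnnt1.S (0.28). The lung transcription factor nkx2-1.L had the same value of 4.02 on all arrays. That value lay below the level filter, where such ties were frequent, so it could not show whether lung tissue was present. The part of such tissue in the value of sftpc.S was not tested.

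The question behind the arrays concerned drug-metabolizing enzymes. Of 20 measured genes of CYP families 1 to 4, which oxidize drugs, steroids and fatty acids, 5 were higher with artemisinin than with pregnenolone and 2 lower, with a median of 0.30 against 0.00 over all genes. In 4 of the 5 higher genes the artemisinin value lay within 1.5-fold of DMSO, which had the highest value of the 3 arrays. These were cyp4f2.L, a fatty acid hydroxylase family member, at 7.20 with artemisinin, 5.27 with pregnenolone and 7.23 with DMSO (1.93), and cyp2a6.1.L (0.90), cyp2a6.9.L (0.86) and cyp4f22.S (0.81). A second probe set of cyp4f22.S differed by 0.17. The fifth, cyp2f1.S, had 10.56 with artemisinin, 8.96 with pregnenolone and 8.12 with DMSO (1.60), so that both compounds stood above DMSO. Of 24 genes of these families on the array 4 lay under the level filter on average and are not in these counts. The CYP2 gene cyp2j2.L, under the filter, had the artemisinin array as the high one. Its brighter probe set had 7.52 with artemisinin, 3.52 with pregnenolone and 3.13 with DMSO (4.0).

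The copies of cyp2a6.1 differed in opposite directions. The .L copy had 11.42 with artemisinin, 10.51 with pregnenolone and 11.46 with DMSO, and the .S copy 8.18, 9.94 and 8.25 in that order (-1.76). For each copy the pregnenolone array was the one that stood apart. Probes of near-identical CYP2 genes may bind each other's transcripts, so the share of each copy is uncertain. The other lower gene was cyp2c8.2.L (-0.81). Genes of the CYP3A group, which in mammals respond to the pregnane X receptor, differed little: cyp3a4.1.L by -0.23, cyp3a4.2.L by -0.34 and cyp3a5.L by -0.01. The CYP2B gene cyp2b6.L, a mammalian CAR target, differed by 0.16. The aryl hydrocarbon-inducible cyp1a1.S and cyp1a1.L differed by 0.58 and 0.53.

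**Figure D3:**
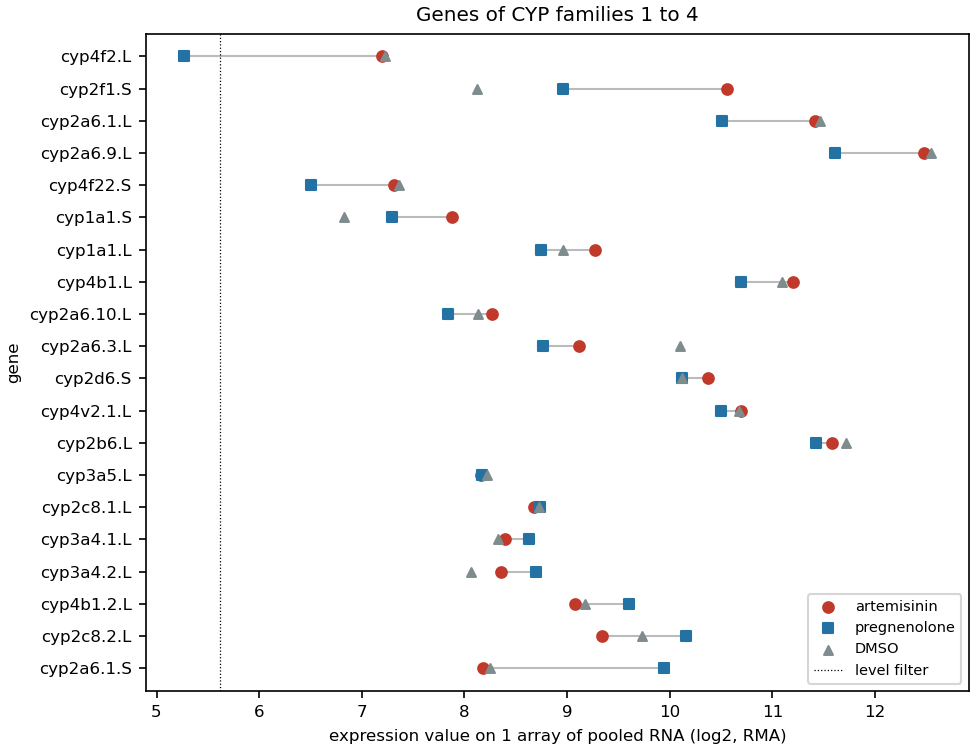
Log2 values of the 20 measured genes of CYP families 1 to 4 on the artemisinin (circle), pregnenolone (square) and DMSO (triangle) arrays, ordered by the difference between the compounds, with the level filter as a dotted line. For cyp4f2.L, cyp2a6.1.L and cyp2a6.1.S the circle and triangle lie together and the square apart, whereas for cyp2f1.S the circle is furthest from the triangle. Genes under the filter on average, such as cyp2j2.L, are not shown.

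The receptors and partners of this system that could be compared were nearly level. Of 46 genes on the array 15 lay under the level filter and were not compared. Of the 31 measured genes 0 were higher and 2 lower (median -0.01). The gene nr1i2.S, which carries the symbol of the pregnane X receptor, had 6.90 with artemisinin, 7.63 with pregnenolone and 6.40 with DMSO (-0.73), and its second probe set differed by -0.48. The other was the estrogen receptor esr1.L at 6.60, 7.51 and 6.78 (-0.91). Estrogen drives the yolk precursors in frog liver, and vtga2.L differed by -0.01, -0.11 and -0.17 at its 3 probe sets and vtgb1.L by -0.09. Their values lay near the top of the scale, which limits the differences that can be seen. The retinoid partner rxra.L differed by 0.47.

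Other phase I enzymes leaned towards artemisinin, with 10 of 38 higher and 3 lower (median 0.29). Besides akr1c2.L and pir.L they included adh1b.L, an alcohol dehydrogenase, at 8.87 with artemisinin, 7.65 with pregnenolone and 9.33 with DMSO (1.22). The steroid 5-beta-reductase akr1d1.S had 8.84, 7.75 and 7.67 on the artemisinin, pregnenolone and DMSO arrays (1.09), while its .L copy was at 7.59 under both compounds. Of the pyrimidine-degrading enzymes, dpyd.L was higher (1.1) and dpys.L lower (-1.14). Other aldo-keto reductases differed less than akr1c2.L: akr1c1.L by 0.48 and akr1c3.L by 0.16.

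Glutathione conjugates drugs and removes peroxides, and NRF2 controls its synthesis in vertebrates. Of 39 genes of glutathione, UDP and sulfate conjugation, 8 were higher and 1 lower (median 0.13), and of 45 antioxidant genes 14 were higher and 3 lower (median 0.28). These lists share genes. The modifier subunit of glutamate-cysteine ligase, gclm.L, had 11.06 with artemisinin, 9.21 with pregnenolone and 8.98 with DMSO (1.84). Its catalytic subunit differed by 1.23 (gclc.S) and 0.42 (gclc.L), and the second step, glutathione synthetase gss.L, by 1.0. Glutathione reductase gsr.L had 9.86 with artemisinin and 8.50 on each of the other arrays (1.36). For 12 of the 14 higher antioxidant genes the DMSO value lay nearer to pregnenolone. Of all probe sets at least 2-fold higher, 43.4% lay so. Here and below such shares are at 2-fold over probe sets, and none is given for genes at 1.5-fold. The transferase gstp1.L had 11.93 with artemisinin, 10.73 with pregnenolone and 8.81 with DMSO (1.2), and its 5 probe sets had a mean of 1.03. Thioredoxin txn.L (1.71) and the autophagy receptor sqstm1.L (1.33) were also higher.

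The lower antioxidant genes were cat.1.L, a catalase, at 6.75 with artemisinin, 8.38 with pregnenolone and 7.80 with DMSO (-1.62), prdx2.L (-1.21) and gpx3.S (-0.81). The brighter copy gpx3.L differed by 0.48. Catalase and peroxiredoxin 2 are abundant in red blood cells. Of 11 measured erythrocyte markers 5 were lower and 0 higher, with a summed linear level of 42620 with artemisinin, 47668 with pregnenolone and 45663 with DMSO. Of 13 erythrocyte markers on the array, 2 lay under the level filter on average and are not in these counts. The part of red blood cells in these values was not tested. The neighbouring catalase gene cat.3.L differed by 0.66.

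Heme is the prosthetic group of CYP enzymes, and its synthesis starts with 5-aminolevulinate synthase, encoded by alas1 in liver and by alas2 in red cell precursors. The alas1.S gene had 11.95 with artemisinin, 10.31 with pregnenolone and 9.62 with DMSO (1.65), and alas1.L had 10.99, 10.22 and 8.99 (0.76). Both copies were highest with artemisinin and lowest with DMSO. The erythroid copies went the other way: alas2.S was at 8.77 with artemisinin, 10.17 with pregnenolone and 9.85 with DMSO (-1.40), and alas2.L at 9.55, 10.85 and 10.30 (-1.3). Along the pathway, alad.S (-0.77), alad.L (-0.37), urod.L (-0.53), urod.S (-0.05), ppox.L (-0.49), fech.L (-0.47) and the uros copies (-0.29 each) were all below 0. Heme oxygenase hmox1, which breaks heme down, was 0.60 (.L) and 0.52 (.S). Over the 21 measured genes of heme handling 3 were higher and 3 lower (median -0.29), and 16 of them had a negative difference. Among all 7478 genes the difference was negative for 3655 and positive for 3022. Both alas2 copies are themselves among the 5 lower erythrocyte markers, and the part of red cells in these values was not tested.

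Cytosolic heat shock proteins refold damaged proteins and are switched on together by heat shock factor. Of 42 measured, 10 were higher and 1 lower (median 0.20), and for all 10 the DMSO value lay nearer to pregnenolone. The share over all probe sets at least 2-fold higher was 43.4%. Of 56 such genes on the array 14 lay under the level filter and were not compared. Some of the 10 passed the filter through their artemisinin value, which ties their direction and DMSO position to the filter. These included hsp70.L and ahsa1.L, with 5.37 each under pregnenolone and 5.63 and 5.12 under DMSO. Next to hsp70.L, the inducible hspa1a.S had 8.91 with artemisinin, 6.46 with pregnenolone and 7.56 with DMSO (2.45), and its second probe set differed by 2.62. The constitutive hspa8.L had 12.27, 10.37 and 10.62 on the artemisinin, pregnenolone and DMSO arrays (1.90). The co-chaperones dnaja4.1.L (1.53), ahsa1.L (1.3), hspbp1.L (1.07) and ahsa1.S (1.01) were higher too, as were hsp90ab1.S (0.89) and fkbp4.L (0.78). The copy fkbp4.S had the same value of 7.68 on all arrays, an exact tie that does not show whether it changed. The lower member was the chaperonin subunit cct4.S (-0.62), whose .L copy differed by 0.06.

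Of 71 genes for chaperones, translocation and the unfolded protein response of the endoplasmic reticulum (ER), 1 was higher and 10 were lower (median -0.22). The translocon-associated subunit ssr4.L had 9.97 with artemisinin, 11.50 with pregnenolone and 10.01 with DMSO (-1.53). Of the same complex ssr3.S (-0.87) and ssr4.S (-0.67) were lower, as were both copies of the translocation gene tram1 (-0.67 for .L and -0.66 for .S). Others were sil1.L (-1.16), the co-chaperone dnajb9.L (-0.96) and the transcription factor xbp1.L (-0.89). The main lumenal chaperones did not pass 1.5-fold: hspa5.L differed by 0.16, hspa5.S by 0.00, hsp90b1.L by 0.34, calr.L by 0.33 and canx.L by 0.34. For 8 of the 10 the DMSO value lay nearer to artemisinin, close to the share of 76.0% over all probe sets at least 2-fold lower. Genes of the amino acid starvation response, driven by ATF4 in mammals, had 2 of 31 higher and 7 lower (median -0.36). They included the alanyl-tRNA synthetase aars1.L (9.85 with artemisinin, 11.13 with pregnenolone and 9.80 with DMSO, -1.28), mthfd2.L (-0.95) and the serine synthesis genes psat1.L (-0.82) and phgdh.S (-0.78). The stress gene atf3.L was higher (0.80).

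**Figure D4:**
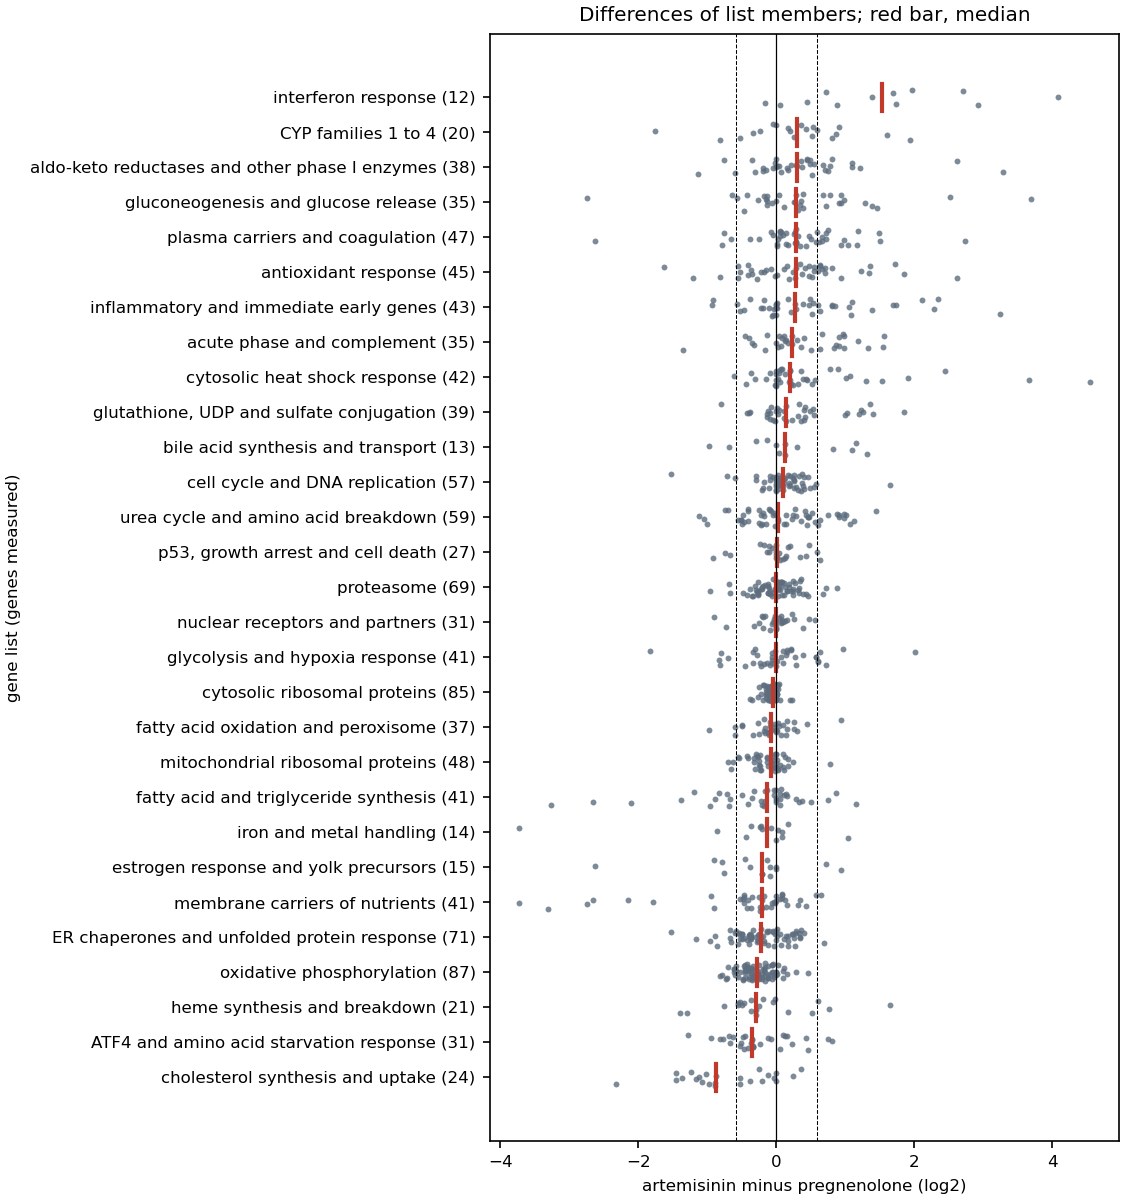
Artemisinin minus pregnenolone (log2) for every measured gene of 29 function lists (points, spread vertically only for display), with the median of each list as a red bar and the number of genes in brackets. Dashed lines mark 1.5-fold. The interferon list has the highest median (1.54) and the cholesterol list the lowest (-0.88), and cytosolic ribosomal proteins lie within the dashed lines. Lists were chosen with earlier results of these data known.

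Interferon-response genes, which cells switch on against viruses, had the highest median of the 29 function lists at 1.54, with 9 of 12 measured genes higher and 0 lower. That rank is no independent finding, since the lists were chosen with earlier results of these data known. The RNA sensor dhx58.L had 8.10 with artemisinin, 6.13 with pregnenolone and 6.58 with DMSO (1.97), and the kinase eif2ak2.L had 7.64, 5.95 and 7.04 (1.69). The transcription factor irf1 was higher by 1.74 (.L) and 1.38 (.S), although a second irf1.L probe set differed by 0.00. The immunoproteasome subunit psmb9.S differed by 0.87 and gbp4.S by 0.72. For all 9 higher genes the DMSO value lay between the compounds, above pregnenolone and below artemisinin. It lay between them for 65.0% of all probe sets at least 2-fold higher. Of 18 genes on the array 6 lay under the level filter, and the median was 0.58 when no filter was used.

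Inflammatory and immediate early genes had 15 of 43 higher and 2 lower (median 0.27). The prostaglandin synthase ptgs2.S had 9.32 with artemisinin, 7.04 with pregnenolone and 5.44 with DMSO (2.28), and olfm4.L had 10.15, 7.80 and 6.89 (2.35). A dimmer ptgs2.S probe set under the filter differed by 1.69. In both genes, as in cxcl8.L, the pregnenolone array also stood above DMSO. The feedback inhibitors of NF-kB and cytokine signalling were higher as well: tnfaip3.S (2.10), socs1.S (1.70), nfkbia.S (1.09) and nfkbia.L (1.06). Of 5 measured leukocyte markers 0 passed 1.5-fold, and their summed linear level was 4510 with artemisinin, 4419 with pregnenolone and 5766 with DMSO.

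Proteins that hepatocytes secrete were higher with artemisinin in many cases, and there the DMSO array sided with artemisinin. Of 35 acute phase and complement genes 13 were higher and 1 lower (median 0.22). The DMSO value was nearer to artemisinin for 12 of the 13, against 56.6% of all probe sets at least 2-fold higher. Complement factor B stood at 12.02 with artemisinin, 10.46 with pregnenolone and 11.80 with DMSO for cfb.S (1.56), and at 12.05, 10.87 and 11.70 for cfb.L (1.18). The initiating proteases masp2.S (1.54), c1s.L (1.33) and c1r.L (0.98) were higher, and the lectin itln2.L lower (-1.35). Of 47 plasma carrier and coagulation genes 14 were higher and 4 lower (median 0.28), with DMSO nearer to artemisinin for 13 of the 14. Kininogen kng1.L had 11.48 with artemisinin, 9.99 with pregnenolone and 11.62 with DMSO (1.5), and plasma kallikrein klkb1.L, which cleaves it, differed by 1.16. Transferrin tf.L differed by 1.04 and its brighter copy tf.S by 0.17. The probe set used for apoe.L differed by 1.18 and the other by -1.47, so no direction is given for it.

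Glucose release genes had 12 of 35 higher and 2 lower (median 0.29). Glucose-6-phosphatase, which frees glucose for export to the blood, was measured in 5 copies. Of these g6pc1.2.S had 9.39 with artemisinin, 6.88 with pregnenolone and 10.77 with DMSO (2.51). The others were g6pc1.1.L (10.36, 8.91 and 12.50 in that order, 1.46), g6pc1.2.L (10.32, 8.94 and 11.18, 1.38), g6pc1.1.S (9.63, 8.65 and 11.57, 0.99) and g6pc1.3.L (6.48, 6.23 and 9.11, 0.25). In all 5 the DMSO array was the highest and pregnenolone the lowest. The pattern of pck1.L was different, with DMSO beside pregnenolone and both under the level filter. The lower genes were slc16a6.L and the glycogen-targeting subunit ppp1r3b.L (-0.64, against -0.07 for ppp1r3b.S). The mitochondrial enzyme pck2.L had 10.80, 9.51 and 10.44 (1.29). Among glycolysis and hypoxia genes, with 6 of 41 higher and 5 lower (median -0.01), the glucose transporter slc2a3.L was the highest at 9.24 with artemisinin, 7.22 with pregnenolone and 7.43 with DMSO (2.01).

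Genes of cholesterol synthesis and uptake, which the sterol-regulated factor SREBP2 controls in mammals, had the lowest median of the 29 function lists at -0.88. Like the interferon rank, it is no independent finding. Of 24 measured, 13 were lower with artemisinin and 0 higher. HMG-CoA synthase hmgcs1.L had 10.11 with artemisinin, 11.57 with pregnenolone and 9.64 with DMSO (-1.46), and hmgcs1.S had 10.25, 11.23 and 9.93 (-0.98). The later enzymes tm7sf2.L (-1.46), ebp.L (-1.36), cyp51a1.S (-1.24), hsd17b7.S (-1.16), idi1.L (-1.12), cyp51a1.L (-1.07) and nsdhl.L (-1.02) were lower as well. For all 13 the DMSO value lay nearer to artemisinin, so the pregnenolone array was the high one. Over all probe sets at least 2-fold lower that share was 76.0%. Fatty acid and triglyceride synthesis had 3 of 41 higher and 11 lower (median -0.14). Both fads2 copies were lower (-2.10 for .S and -1.2 for .L), whereas of the stearoyl-CoA desaturase copies scd.S differed by -1.38 and scd.L by -0.16.

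Nutrient carriers were likewise lower more often than higher, with 1 of 41 higher and 8 lower (median -0.21). Both copies of the amino acid carrier slc7a8 were lower, with 9.02 under artemisinin, 11.18 under pregnenolone and 9.75 under DMSO for slc7a8.S (-2.16) and 9.05, 10.83 and 9.56 for slc7a8.L (-1.78). Among iron and metal handling genes, with 1 of 14 higher and 2 lower (median -0.14), the cobalamin carrier tcn2.L had 8.87, 9.73 and 6.89 in that order (-0.86), and here both compounds stood above DMSO. Its brighter copy tcn2.S differed by 0.08. Amino acid breakdown was divided around a median of 0.02, with 12 of 59 genes higher, such as aldh4a1.L (1.45, the same mean over 3 probe sets), hgd.L (1.06) and tdo2.L (1.01), and 5 lower, such as the biosynthetic pycr1.L (-1.12) and glutamine synthetase glul.L (-1.05). The copy glul.S differed by 0.24.

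Oxidative phosphorylation differed by small amounts in the same direction. Of 87 measured genes 0 were higher and 9 lower, but 77 had a negative difference, with a median of -0.28. Over all 7478 genes 3655 had a negative difference and 3022 a positive one. The 35 complex I genes had a median of -0.39, the 20 ATP synthase genes -0.29, the 10 of complex III -0.30, the 16 of complex IV -0.14 and the 5 of complex II -0.07. Of the ATP synthase core subunits atp5f1a.S (-0.72) and atp5f1c.S (-0.73) were lower, and their .L copies differed by -0.49 and -0.58. Of 85 cytosolic ribosomal protein genes 0 passed 1.5-fold in either direction (median -0.05), and of 69 proteasome genes 3 did in each (median 0.00).

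The .L and .S copies of a gene gave a further view of the same difference. For 1171 pairs with both copies measured, the differences of the copies correlated at a Pearson r of 0.443 and a Spearman rho of 0.420, a description over gene pairs that share arrays and in part probe sequence. In 43 pairs both copies passed 1.5-fold, in the same direction in 41 (17 higher and 24 lower). The pairs in opposite directions were cyp2a6.1 and cd82. Both acly copies (-0.96 for .L and -0.72 for .S), which make cytosolic acetyl-CoA, were among the lower pairs, and both aldh1a1 copies (0.67 and 0.70 in that order), retinal dehydrogenases, among the higher ones. In 87 pairs only the .L copy passed and in 91 only the .S copy. Large gaps between copies were seen for apoa1, for cdk2 (.L 0.25 and .S -1.53) and for gsta1 (.L 1.39 and .S -0.09).

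**Figure D5:**
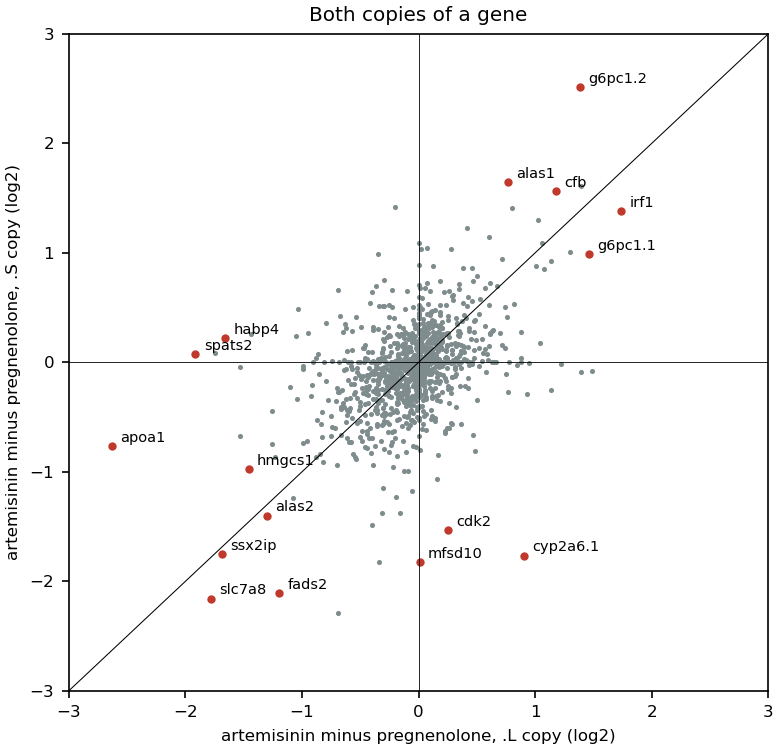
Artemisinin minus pregnenolone (log2) for 1171 genes with both copies measured, with the .L copy on the x axis and the .S copy on the y axis, and a diagonal where both are equal. Labelled points show copies that differed in the same direction (g6pc1.2, slc7a8, fads2) and in opposite directions (cyp2a6.1, cdk2).

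The DMSO array, which took no part in the difference, sat unevenly between the compounds. Of the 225 probe sets at least 2-fold lower with artemisinin, 171 (76.0%) had a DMSO value nearer to artemisinin and 54 nearer to pregnenolone. Of the 334 higher, 189 were nearer to artemisinin and 145 to pregnenolone. Over all compared probe sets the share nearer to artemisinin was 50.7%. That count puts the 2121 probe sets with equal values on both treated arrays on the pregnenolone side. Among the rest the share nearer to artemisinin is therefore above 50.7%, which is no fair baseline for the higher side. The higher side held groups of both kinds: heat shock genes, 12 of 14 antioxidant genes and 11 of 15 inflammatory genes with DMSO nearer to pregnenolone, and 12 of 13 complement genes and 13 of 14 plasma carrier genes with DMSO nearer to artemisinin. Heat shock genes such as hsp70.L and ahsa1.L passed the level filter through their artemisinin value. The DMSO array also carried exocrine pancreas transcripts, with a summed linear level of 539 with artemisinin, 447 with pregnenolone and 9040 with DMSO over 8 markers, and more smooth muscle and fibroblast signal (3078, 3594 and 5798 over 13). Neither list differed between the treated arrays by as much, and their part in the position of DMSO was not tested. Of 17 pancreas markers on the array 9 lay under the level filter on average. Some of the 8 summed passed it only through DMSO, such as prss3.S at 4.47 with artemisinin, 4.56 with pregnenolone and 11.39 with DMSO. The DMSO array thus helped to choose the markers summed. The member pnliprp2.L was highest with artemisinin (7.49, 5.84 and 6.29 in the same order).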

How the data were processed

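Liver RNA of 3 groups was measured on 1 Affymetrix array each. The deposited values are log2 expression values made by the authors with RMA, per the submitters' processing notes. Its version is not given in the sources used here. RMA subtracts background, makes the arrays' distributions alike and summarises probes, so any difference in total message is lost. RMA by definition gives base 2, and the range of the values fits it. The number of arrays limits the precision.

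Of 32635 probe sets, 96 controls were left out. In the platform annotation 15495 had 1 symbol, 279 several and 16765 no symbol. Entrez identifiers were used to bring symbols up to date with a RefSeq gene table of another build, so no positions are given. Only probe sets with 1 symbol were named. Median summarising produced exact ties: 2121 compared probe sets had the same value on both arrays. Equal values, as for akr1d1.L, fkbp4.S and krt7.L, can be such ties and do not show that a transcript was unchanged.

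Differences were computed in Python 3.11.15 with pandas 2.3.3. Counts use 2-fold for probe sets and 1.5-fold for genes. There were 38 lists, 29 of functions and 9 of cell type markers, matched by symbol, and some share genes. The members and lists were chosen with earlier results of these data known. Genes set to be named were the 15 highest and 15 lowest and up to 6 members with the largest difference per list. All measured CYP family 1 to 4 and heme genes were in that set. So were other copies and probe sets, which are not printed for every gene. Others were chosen after their values were seen. Alternatives varied the filter, normalization, probe sets and thresholds. The steps were run on simulated data with built-in differences far past 1.5-fold. That run checks the code and does not bear on calls near the threshold. A planned search for promoter motifs was not run.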

Additional observations from a re-analysis of the deposited data

How the results depend on the processing

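With 1 pooled array per side, nothing here was tested, and signal near background limits the differences of dim probe sets. Counts of probe sets at least 2-fold higher and lower were 192 and 149 with the level filter at the upper quartile, 140 and 119 with 1 probe set per gene, 835 and 919 at 1.5-fold and 135 and 57 at 3-fold. Genes at 2-fold numbered 140 higher and 119 lower. The other 14 recomputed counts of probe sets, over other filters, median centring, quantile normalization, loess and probe set suffixes, stayed within 1.5 times. So did 18 other counts of genes. Leaving out the markers of other cell types, chosen after seeing the data, is among them. The interferon median of 1.54 became 0.581 with no level filter and 1.13 either without probe sets marked for cross-hybridization or as the mean of all probe sets. Of 276 recomputed list medians 5 changed sign, all near 0: glycolysis (-0.01) to 0.0034 with the filter on the 2 compared arrays and to 0.060 under both quantile normalization and loess, nuclear receptors (-0.01) to 0.0089 under loess and p53 (0.01) to -0.0021 with centring. Of 622 recomputed list counts 65 were lower and 6 higher by over 1.5 times. Of 1112 recomputed differences of named genes 10, besides the 2 given next, moved by more than the SD of 0.267 between probe sets. As the mean of its probe sets scp2.L turned from -0.98 to 0.0064 and apoe.L from 1.18 to -0.15. The alternative itself holds the cause, since their probe sets oppose each other. No paired analysis was possible because each group had 1 array.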

Other observations

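Some of the widest differences lay outside the genes compared or had no gene symbol. The arachidonic acid epoxygenase gene cyp2j2.L fell under the level filter on average, yet its probe sets stood at 7.52 and 5.41 with artemisinin, 3.52 and 3.08 with pregnenolone and 3.13 and 3.23 with DMSO, differences of 4.0 and 2.33. The artemisinin array was the high one at both. The collagenase gene mmp1.S, also under the filter, had 6.12 with artemisinin, 3.93 with pregnenolone and 3.65 with DMSO (2.19). Of 5 probe sets of the interferon gene ifit1b.L, 2 differed by 2.56 and 2.04 and the others by 0.27, -0.13 and -0.01. Below the filter 63 probe sets were higher by 2-fold or more and 45 lower. The highest probe set of all had no symbol and stood at 13.87 with artemisinin, 8.61 with pregnenolone and 13.13 with DMSO (5.26). These were chosen after their values were seen.

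Neighbouring genes in the RefSeq order of another genome build were also set side by side. Of 1932 adjacent pairs with both genes measured, 12 had both genes at least 1.5-fold higher, 11 both lower and 12 opposite. Over all genes 4.97% were higher and 6.53% lower. The pair counts that these shares alone would give were not computed, so the counts do not show that neighbours share a direction. A gene such as c1r.L can be in several pairs. Some of the pairs are similar genes side by side, such as g6pc1.1.L and g6pc1.2.L, and binding of probes to both transcripts was not tested. The pairs that were both higher included c1s.L and c1r.L, and kng1.L and hrg.L (0.75). The control transcript ef1a on the array was lower by -0.96, -0.77 and -0.31 at its 3′, 5′ and middle probe sets, whereas 3′ actin differed by 0.01 and 3′ gapdh by -0.05. Keratin krt7.L differed by 0.00 at the probe set used and by 1.08 as the mean of 3. In the cell cycle list, with 1 of 57 genes at least 1.5-fold higher and 3 lower, birc5l.S, an inhibitor of cell death that acts in mitosis, had 6.56 with artemisinin, 4.91 with pregnenolone and 6.59 with DMSO (1.65), and its dimmer second probe set differed by 0.25. The median of that list was 0.09.

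Fatty acid oxidation had 1 of 37 genes at least 1.5-fold higher (etfa.L, 0.94, which passes electrons to the respiratory chain) and 3 lower, with a median of -0.07. The brighter copy etfa.S differed by -0.01. Bile acid synthesis and transport had 4 of 13 higher and 2 lower (median 0.12), among them the cholesterol hydroxylase-related cyp46a1.2.L (1.32) and the efflux pump abcb1.L (0.82). The probe sets of its member scp2.L opposed each other at -0.98 and 0.99. Mitochondrial ribosomal proteins had 1 of 48 higher and 3 lower (median -0.07), and genes of p53, growth arrest and cell death 2 of 27 higher and 3 lower (median 0.01). The estrogen response and yolk list had 2 of 15 higher and 4 lower (median -0.20). Of 14 hepatocyte markers 3 were higher and 2 lower, of 6 biliary markers 1 was higher, and of 4 endothelial markers 1 was higher (cldn5.L, 1.22, against -0.02 for cldn5.S). Of 8 exocrine pancreas markers 1 was higher (the lipase-related pnliprp2.L, 1.65), and of 13 smooth muscle, stellate and fibroblast markers 0 passed in either direction. The oocyte markers, 5 on the array, all lay under the level filter, as did 3 of 4 muscle markers, the other being ckm.L at -0.35.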
